A study of Mus musculus with 50 samples.

Results

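Cxcl1 and Ccl2 encode chemokines, small secreted proteins that recruit leukocytes, and they were 2 of the 1000 gene targets imaged in livers of aged mice with and without deletion of HIRA in hepatocytes. HIRA is a histone chaperone that acts on chromatin outside of DNA replication. The genes were chosen by name, with earlier results of these data known, and their counts were followed in every cell, in cells of at least 15000 square pixels (called hepatocyte-sized here), in cell classes, in local foci and by genotype. Spatial molecular imaging decodes fluorescent spots on a section, so that each count is 1 transcript of 1 target assigned to a segmented cell. HIRA KO mice were HIRA fl/fl animals on a C57BL/6 background, control mice were wildtype C57BL/6, and both received the virus AAV8-TBG-Cre when 6 months old, so Cre was present in each group. Both were kept for 12 further months, and the median lobe was collected at 18 months as formalin-fixed, paraffin-embedded sections of 5 µm. The TBG promoter restricts Cre to hepatocytes, and other liver cells should keep their HIRA alleles unless they arose from hepatocytes. By lineage tracing, the paper reports that hepatocytes of HIRA KO livers gave rise to cholangiocytes. Some cholangiocyte-like cells of HIRA KO areas may therefore lack HIRA, which was not tested here. Hira was not a target of the panel, so the deletion could not be checked in the transcripts. The labels name a genotype for each of 50 fields of view and no mouse. Fields with consecutive numbers formed 6 tissue areas, 3 of each group, which were taken as the replicates. All control areas were mounted on the same side of the slide, with a HIRA KO area opposite each of them in 3 slide rows, so genotype and side cannot be told apart. The p-values below refer to the spread between areas, which the fits estimate in part from all targets together. Fits on sums per field of view are an exception. Their replication comes from the fields, with a single correlation within areas for all targets.

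CXCL1 is a CXC chemokine that attracts neutrophils through the receptor CXCR2, and CCL2 is a CC chemokine that draws monocytes carrying CCR2 out of the blood. Both genes are classic targets of NF-kB and respond within hours to interleukin 1, tumour necrosis factor and tissue damage. In the liver, hepatocytes are a known source of CXCL1, whereas stellate cells, endothelial cells and Kupffer cells, the resident macrophages, are known sources of CCL2.

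The 49665 cells that passed the filters held between 718991 and 1542205 gene counts per area, with a median of 88 to 147 counts per cell. Cxcl1 was read 5180 times and Ccl2 4547 times, which ranked 476th and 605th of 1000 targets by total count. The 10 negative probes, which match no transcript, gave 1107 to 3828 counts with a mean of 2903.8. Cxcl1 thus lay 1.78 times above the mean negative probe and 1.35 times above the highest, and Ccl2 lay 1.57 and 1.19 times above them. A total of 243 of 1000 targets lay at or under the highest negative probe. A large part of every Cxcl1 or Ccl2 count is therefore of the size that a probe without a transcript gives. Levels over all cells and by cell size are set beside the negative probes of the same cells, and class levels where stated. Most positive cells held a single count, namely 3682 of the 4351 Cxcl1-positive cells and 3266 of the 3849 Ccl2-positive cells. The highest counts in any cell were 7 for Cxcl1 and 11 for Ccl2.

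Transcripts of both genes lay in the nucleus more often than the counts of negative probes. In all segmented cells, 65.4% of 5283 Cxcl1 transcripts and 57.7% of 4637 Ccl2 transcripts were assigned to the nucleus, against 47.7% of all target transcripts and 28.9% of the 29773 counts of negative probes. The nuclear share of Cxcl1 was 64.8%, 62.5% and 55.6% in control areas 1, 2 and 3, and 64.3%, 71.6% and 63.3% in HIRA KO areas 1, 2 and 3. The 95% Wilson intervals of these 6 shares, which cover counting error only, ran from 50.97% at the lowest to 73.8% at the highest. The nuclear share of Ccl2 was 62.7%, 65.1% and 54.6% in the control areas, and 52.8%, 58.6% and 54.7% in the HIRA KO areas, with intervals between 49.6% and 68.6%. Every area therefore placed both genes in the nucleus more often than its own targets at large.

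The Cxcl1 share exceeded that of the negative probes by 35.1 ± 5.09 percentage points (SD, n = 6 areas) and that of all targets by 15.6 ± 6.33 points, and was higher in 6 of 6 areas beside either. For Ccl2 the differences were 29.5 ± 6.16 and 9.97 ± 2.65 points, also in 6 of 6 areas. These differences are a description, since they were taken up after the shares had been seen. Among the 748 targets with more transcripts in cells than any negative probe, whose median nuclear share was 50.5%, Cxcl1 ranked 23rd and Ccl2 113th. The excess of Cxcl1 over all targets was 12.7, 9.71 and 8.53 points in the control areas and 17.5, 24.3 and 20.9 points in the HIRA KO areas. The groups did not overlap, as was the case in this direction for 22.7% of the 748 targets. Beside the negative probes the excess of Cxcl1 was 33.2 ± 6.71 points in control and 36.96 ± 3.001 points in HIRA KO areas, which overlapped. For Ccl2 the excess over all targets was 10.1 ± 2.43 points in control and 9.82 ± 3.4 points in HIRA KO areas, and these overlapped too. Within hepatocyte-like cells alone, 68.3% of Cxcl1 and 44.6% of the other target transcripts were nuclear. Outside any cell, Cxcl1 lay between 0.665 and 1.17 times the mean negative probe and Ccl2 between 0.514 and 1.71 times.

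**Figure D1:**
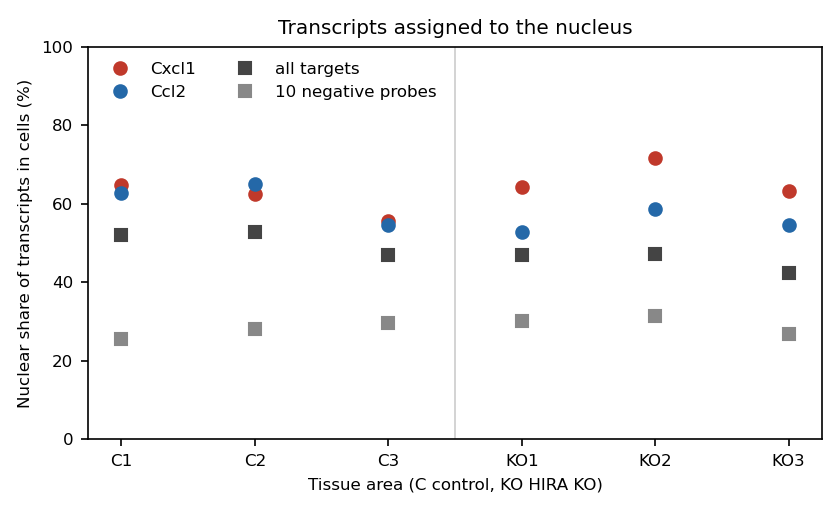
Share of transcripts inside cells that was assigned to the nucleus, in percent, for Cxcl1, Ccl2, all targets and the 10 negative probes in 3 control areas (C) and 3 HIRA KO areas (KO). Both genes lie above all targets and the negative probes in each of the 6 areas, and Cxcl1 reaches 71.6% in HIRA KO area 2.

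As a share of all gene counts, Cxcl1 was higher in HIRA KO areas 1 and 2 than in any control area, and HIRA KO area 3 was not. Cxcl1 stood at 626, 617 and 612 counts per 1000000 gene counts (CPM) in control areas 1, 2 and 3, and at 963, 1010 and 537 CPM in HIRA KO areas 1, 2 and 3. The control areas lay close together, HIRA KO areas 1 and 2 lay above them, and HIRA KO area 3 lay below all of them. The mean negative probe was at 364, 444 and 453 CPM in the control areas and at 418, 452 and 404 CPM in the HIRA KO areas, without a matching rise. Over areas the mean was 618 ± 6.91 CPM (SD, n = 3) in control and 836 ± 261 CPM in HIRA KO. In the fit across all targets the log2 fold change was 0.54 with a standard error of 0.17, and it did not pass after adjustment over all targets (edgeR quasi-likelihood test with Benjamini-Hochberg adjustment, adjusted p = 0.571; 2 of 998 targets passed, 0.2%; with the slide row as a block 1.7% did). Since the gene was named with results known, this value and the others of this comparison describe the areas and are no independent support. Without HIRA KO area 3 the log2 fold change was 0.75 with an adjusted p of 0.00829 in edgeR. Without any other single area the adjusted p from edgeR stayed at or above 0.05. With all areas kept, DESeq2 gave 0.54 with an adjusted p of 0.0462 (10 of 998 targets passed, 1%). The side of the threshold thus depended on HIRA KO area 3 and on the fit used.

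As a share of all gene counts, Ccl2 overlapped between the groups over all cells. It stood at 670, 613 and 693 CPM in the control areas and at 726, 654 and 633 CPM in the HIRA KO areas, so the groups overlapped. The log2 fold change was 0.14 with a standard error of 0.10 (edgeR, adjusted p = 0.829). At 659 ± 40.9 CPM in control and 671 ± 48.95 CPM in HIRA KO (SD, n = 3 areas each), the group means were closer than the areas of either group. On the scale of counts per cell area, chosen after seeing the data, the HIRA KO areas held more counts in all. All targets together stood at 6.47, 8.62 and 6.17 counts per 1000 square pixels of cell area in control and at 10.3, 10.8 and 11.2 in HIRA KO areas, a ratio of means of 1.52, and the mean negative probe had a ratio of 1.53. Cxcl1 stood on this scale at 0.00405, 0.00532 and 0.00378 in control and at 0.00992, 0.0109 and 0.00603 in HIRA KO areas, a ratio of 2.04. Ccl2 stood at 0.00433, 0.00529 and 0.00427 in control and at 0.00748, 0.00707 and 0.00711 in HIRA KO areas, a ratio of 1.56, close to that of all targets and of the negative probes. All 3 HIRA KO areas thus lay above all 3 control areas for both genes per cell area, as they did for 55.3% of targets. In hepatocyte-sized cells both genes did so too, with ratios of 2.21 for Cxcl1 and 1.51 for Ccl2, beside 1.51 for all targets and 37.8% of targets without overlap. The share of cells with a Cxcl1 count, which also follows depth, was 6.39%, 8.20% and 5.44% in control areas and 10.3%, 12.1% and 8.26% in HIRA KO areas, at median depths of 94, 134 and 88 and of 104, 122 and 147 counts per cell. In sums over an area, fewer positive cells and less RNA per cell cannot be told apart.

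**Figure D2:**
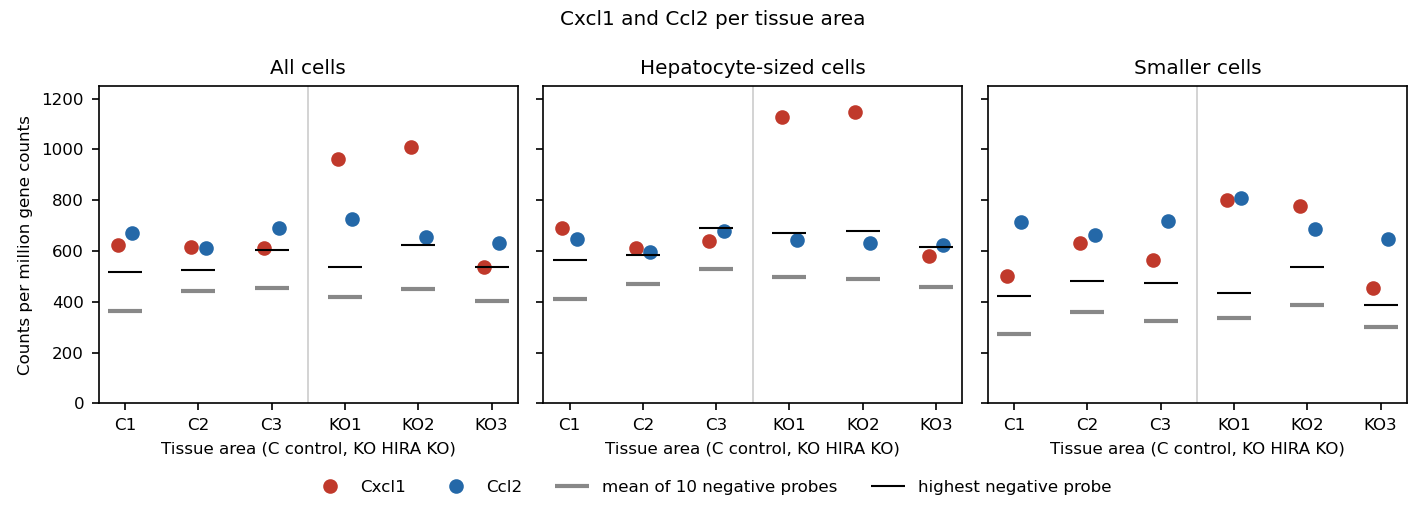
CPM of Cxcl1 and Ccl2 in all cells, hepatocyte-sized cells and smaller cells of 3 control (C) and 3 HIRA KO (KO) areas, with horizontal marks for the mean and the highest of 10 negative probes. Cxcl1 reaches 1126 and 1148 CPM in hepatocyte-sized cells of HIRA KO areas 1 and 2 and 580 CPM in area 3, while Ccl2 stays between 597 and 679 CPM in the same cells.

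The difference in Cxcl1 was spread over the fields of view of HIRA KO areas 1 and 2. The 8 fields of HIRA KO area 1 ran from 677 to 1318 CPM with a median of 971, and the 9 fields of HIRA KO area 2 from 847 to 1367 CPM with a median of 997. The 8 fields of HIRA KO area 3 ran from 395 to 666 CPM with a median of 527. Control medians were 631, 552 and 595 CPM. Every field of HIRA KO area 2 thus lay above the median field of each control area. The highest control fields reached 794, 899 and 983 CPM, and the last of these, field 36 of control area 3, holds a focus described below. For Ccl2 the area medians lay between 603 and 690 CPM in all 6 areas, and its highest field was field 16 of HIRA KO area 1 with 1134 CPM from 191 counts.

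**Figure D3:**
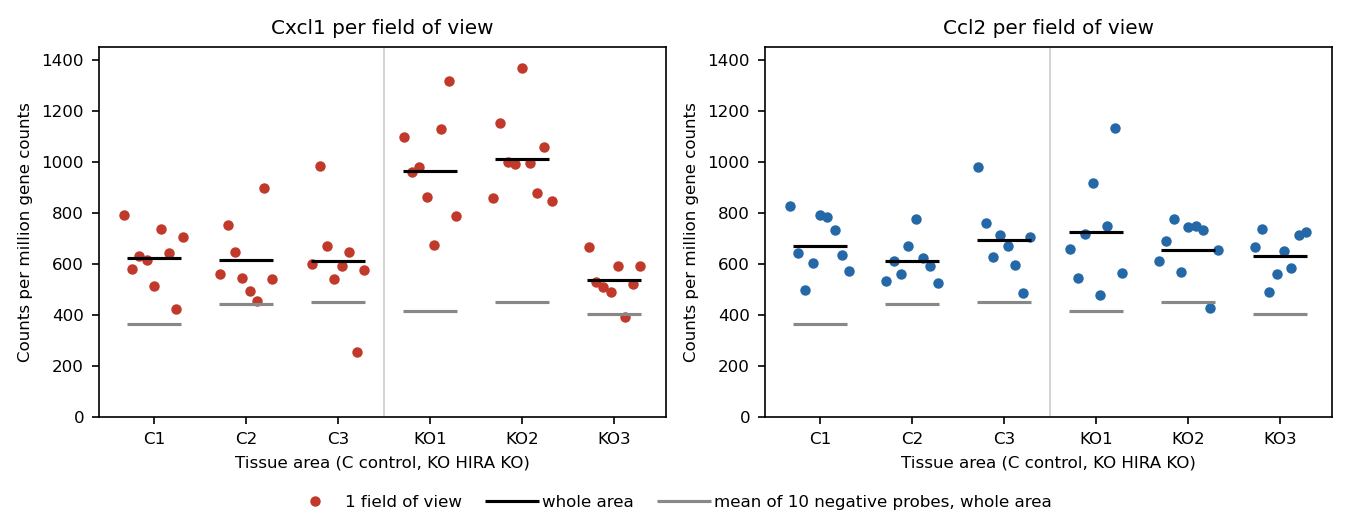
CPM of Cxcl1 and Ccl2 in each of 50 fields of view, grouped by tissue area (C control, KO HIRA KO), with marks for the whole area and for the mean of 10 negative probes. Fields of HIRA KO areas 1 and 2 lie high for Cxcl1, those of HIRA KO area 3 lie with the controls, and Ccl2 fields overlap across all areas.

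Hepatocyte-sized cells made up 41.97% of the cells, held 63.1% of all gene counts and gave 68.1% of the Cxcl1 counts but 60.2% of the Ccl2 counts. The size rule was checked against markers. The 12 hepatocyte markers summed to 65806 to 131184 CPM in hepatocyte-sized cells of the 6 areas and to 38429 to 76934 CPM in smaller cells, and 51.5% of hepatocyte-sized cells were hepatocyte-like by clustering, with a range from 28.9% in control area 1 to 70.4% in HIRA KO area 3. The rule thus enriched for hepatocytes without being specific to them, and the hepatocyte marker sum was higher in all 3 HIRA KO areas than in all 3 control areas in these cells. Its part in the Cxcl1 result was not tested. Cells just under the limit, of 13000 to 15000 square pixels, held Cxcl1 at 747 CPM, and cells just over it, of 15000 to 17000 square pixels, at 829 CPM.

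In hepatocyte-sized cells Cxcl1 stood at 690, 612 and 641 CPM in the control areas and at 1126, 1148 and 580 CPM in the HIRA KO areas. HIRA KO areas 1 and 2 were high, HIRA KO area 3 was below every control, and the groups overlapped, whereas 3.01% of targets had all 3 HIRA KO areas above all 3 control areas in these cells. The log2 fold change was 0.67 with a standard error of 0.18 (edgeR, adjusted p = 0.267; 1 of 998 targets passed, 0.1%). With the slide row as a block the log2 fold change was 0.64 with an adjusted p of 5.56e-08, with 44 of 998 targets (4.41%) past the threshold under that block. With sums per field of view, where fields of an area share a section, and with the area as a random block, it was also 0.64, with an adjusted p of 0.0043 in limma-voom (2.91% of targets passed). DESeq2 gave 0.66 and no adjusted p for this gene (1.5% of targets passed). Within the slide rows HIRA KO was higher than control in rows 1 and 2 and lower in row 3. The small p with the block therefore rests on a spread shared over targets. It does not measure the spread of Cxcl1 itself between rows. The fit on field sums likewise used a single correlation within areas for all targets. Its replication came from the fields, so its p does not measure the spread of Cxcl1 itself between areas. Without HIRA KO area 3 the value was 0.89 with an adjusted p of 0.00148 in edgeR. Ccl2 stood at 647, 597 and 679 CPM in the control areas and at 643, 634 and 624 CPM in the HIRA KO areas of the same cells, where its log2 fold change was 0.11 with a standard error of 0.10 (edgeR, adjusted p = 0.805).

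Relative to smaller cells of the same area, hepatocyte-sized cells carried 1.27 ± 0.191 times the Cxcl1 level (SD over 6 areas, higher in 5 of 6) and 0.905 ± 0.0591 times the Ccl2 level (higher in 0 of 6). The mean negative probe was itself 1.45 ± 0.134 times higher in the large cells, in 6 of 6 areas. Over the mean negative probe, Cxcl1 was at 1.72 in hepatocyte-sized and 1.95 in smaller cells, and Ccl2 at 1.33 and 2.14. Over single areas the Cxcl1 ratio was higher in the large cells in HIRA KO area 2 alone (2.33 against 2.02), and the Ccl2 ratio in none. With the mean negative probe taken off instead, Cxcl1 was at 340 CPM in hepatocyte-sized and 318 CPM in smaller cells, so the order depends on how background is treated.

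Levels were then compared across cell classes. Cells were clustered without the counts of Cxcl1 and Ccl2, and 10 classes were named from marker genes, with the ending "-like". Levels between the genes are not compared, because probes differ. Segmented cells of a section overlap and take up transcripts of their neighbours, and no doublet caller was run.

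Among named classes, Ccl2 was highest in stellate-like cells. Stellate cells are vitamin A-storing pericytes that form matrix when activated. The class joined a cluster of 4613 cells led by Dcn and Bgn with one of 795 cells led by Gsn, Mgp and Dpt. It may therefore hold other fibroblasts too, which was not tested. In this class Ccl2 stood at 682, 973 and 1124 CPM in control areas and at 1183, 1071 and 1360 CPM in HIRA KO areas. These levels were above the highest negative probe in 6 of 6 areas. The mean over areas was 1066 ± 228 CPM (SD, n = 6) against 374 CPM for the mean negative probe. Next among named classes came endothelial-like cells with 717 ± 108 CPM, myofibroblast-like cells with 699 ± 429 CPM, Kupffer-like cells with 689 ± 164 CPM, neutrophil-like cells with 676 ± 258 CPM and monocyte/dendritic-like cells with 635 ± 154 CPM, whose spreads overlapped. T/NK-like cells stood at 623 ± 144 CPM. Hepatocyte-like cells followed with 606 ± 33.99 CPM, which exceeded the highest negative probe in 1 of 6 areas. The myofibroblast-like value rests on 21 counts and the neutrophil-like value on 69. Both, like the T/NK-like value, exceeded that probe in 2 of 6 areas. Over their own mean negative probe, stellate-like cells led with 2.88 times, then myofibroblast-like with 2.33 and monocyte/dendritic-like cells with 2.04. Endothelial-like cells were at 1.91 times, so the order after stellate-like cells depended on the background used. Stellate-like cells were 10.9% of all cells, held 8.65% of all gene counts and gave 14.03% of the Ccl2 counts.

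Among named classes, Cxcl1 had no single leading one. Neutrophil-like cells stood at 893 ± 256 CPM (SD, n = 6 areas), hepatocyte-like cells at 829 ± 315 CPM, stellate-like cells at 712 ± 203 CPM, myofibroblast-like cells at 689 ± 579 CPM and cholangiocyte-like cells at 671 ± 146 CPM, and no neighbours in this order differed beyond their spread. Endothelial-like cells with 554 ± 107 CPM, Kupffer-like cells with 485 ± 132 CPM and monocyte/dendritic-like cells with 465 ± 114 CPM were at the low end. The neutrophil-like value rests on 90 counts in 894 cells. It stands beside a mean negative probe of 490 CPM and exceeded the highest negative probe in 3 of 6 areas. Hepatocyte-like cells, by contrast, gave 2442 counts, which is 47.1% of all Cxcl1 against 33.2% of cells and 41.5% of gene counts. Over its own mean negative probe, Cxcl1 reached 2.21 ± 0.512 times in cholangiocyte-like cells and 1.73 ± 0.590 times in hepatocyte-like cells, so the order of classes depended on the background used.

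An unnamed cluster of 924 cells was led by Saa1/2 and Cxcl9, with Mt1, Mt2, Cxcl10, Lcn2 and Icam1 among its 10 leading genes. Its means over areas were high for both chemokines, but several areas lay near background. Saa1/2 encode acute-phase proteins and Cxcl9 and Cxcl10 are interferon-induced chemokines for T cells. Its mean levels were 922 ± 615 CPM for Cxcl1 and 993 ± 340 CPM for Ccl2 (SD, n = 6 areas), beside a mean negative probe of 490 CPM. The level exceeded the highest negative probe in 2 of 6 areas for Cxcl1 and in 3 of 6 for Ccl2. In control areas its Cxcl1 mean was 558 CPM. HIRA KO area 1 held 488 of its cells, and there Cxcl1 was at 1231 CPM from 73 counts and Ccl2 at 1467 CPM from 87 counts, against a mean negative probe of 376 CPM. Its highest Cxcl1 level, 2040 CPM in HIRA KO area 2, rests on 23 counts, and control areas held 68, 114 and 99 of these cells with at most 15 counts of either gene. Another unnamed cluster, led by Ccl21a/b/d and Il11ra1/2, had Cxcl1 at 907 ± 279 CPM, above the highest negative probe in 5 of 6 areas.

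**Figure D4:**
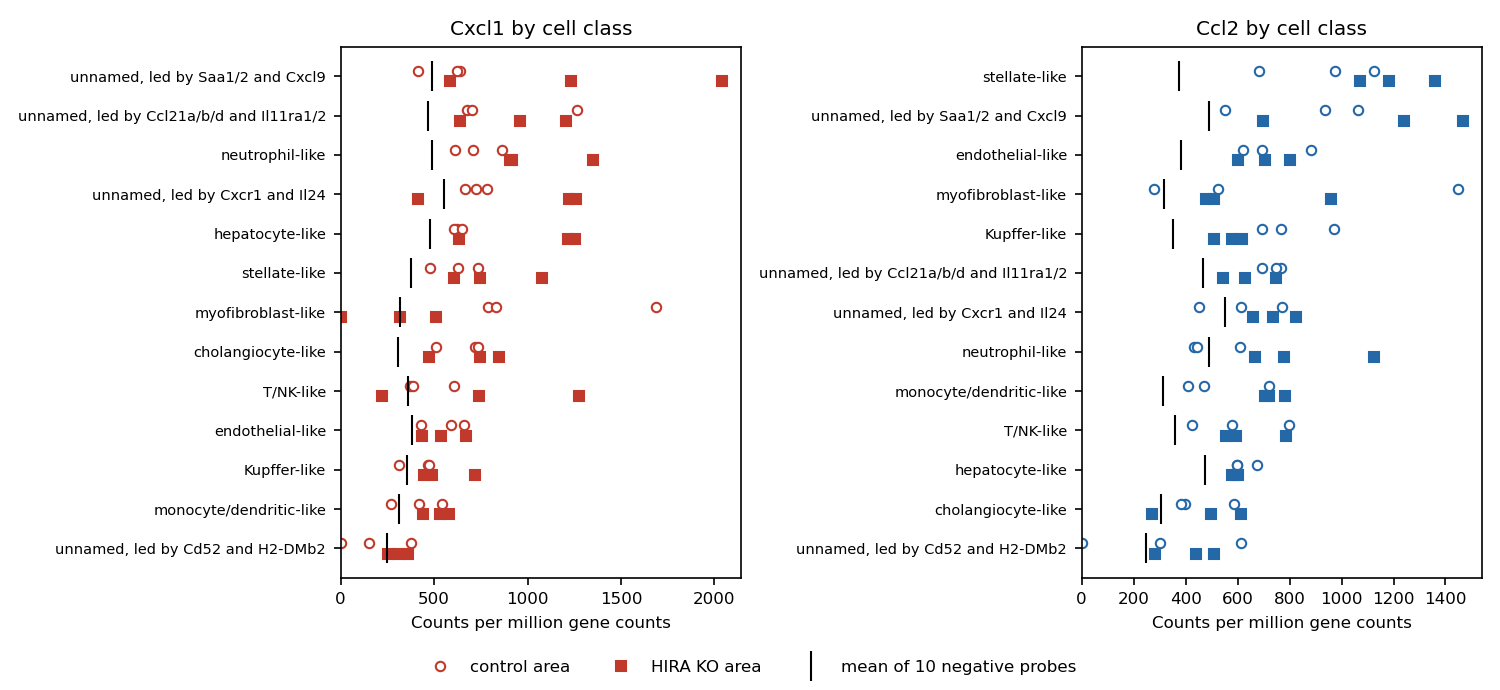
CPM of Cxcl1 and Ccl2 in each class of cells present in all 6 areas, ordered by the mean over areas, with 1 point per area (open circles for control, filled squares for HIRA KO) and a tick at the mean of 10 negative probes. Stellate-like cells lead for Ccl2 with 6 points from 682 to 1360 CPM, whereas for Cxcl1 hepatocyte-like cells of 2 HIRA KO areas lie at 1216 and 1255 CPM and the other 4 areas between 604 and 647 CPM.

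In hepatocyte-like cells, which gave the most Cxcl1 counts, the gene stood at 622, 604 and 647 CPM in control areas and at 1255, 1216 and 631 CPM in HIRA KO areas, so HIRA KO area 3 lay among the controls while the other 2 areas were high. HIRA KO areas 1 and 2 were also above the control areas in other classes. Among these were stellate-like cells, given below, in which HIRA KO area 3 lay among the controls. In 2 more, HIRA KO area 3 was below all control areas. An unnamed cluster of 5988 cells led by Cxcr1 and Il24 had Cxcl1 at 782, 724 and 666 CPM in control and at 1258, 1223 and 413 CPM in HIRA KO areas, the last from 6 counts. T/NK-like cells had it at 368, 386 and 609 CPM in control and at 741, 1273 and 219 CPM in HIRA KO areas, from 4 to 32 counts an area. Over areas, the mean negative probe was at 552 CPM in that cluster and at 359 CPM in T/NK-like cells. In hepatocyte-like cells the log2 fold change was 0.84 with a standard error of 0.19 and just missed the threshold (edgeR, adjusted p = 0.0518; 6 of 998 targets passed, 0.601%). All 3 HIRA KO areas lay above all 3 control areas in these cells for 3.11% of targets, and Cxcl1 was not among them. With the slide row as a block its log2 fold change was 0.82 (edgeR, adjusted p = 0.00391; 3.11% of targets passed), on sums per field of view, with the area as a random block because fields share it, 0.86 (limma-voom, adjusted p = 4.27e-05; 4.21% passed), and in DESeq2 0.84 (adjusted p = 0.106; 2.3% passed). The fits with the block and on field sums again share their estimate of spread over targets, and the latter takes its replication from fields. Clustering at resolution 0.8 gave 0.74 (edgeR, adjusted p = 0.137) and at 2.4 gave 0.81 (adjusted p = 0.0366). Leaving out an area moved this adjusted p between 1.26e-05 without HIRA KO area 3 (0.501% of targets passed) and 0.388 without control area 2. It was 0.0478 without control area 1 and 0.0219 without control area 3. Ccl2 in the same cells was at 674, 597 and 596 CPM in control and at 600, 579 and 593 CPM in HIRA KO areas, with a log2 fold change of 0.06 and a standard error of 0.11 (edgeR, adjusted p = 0.860).

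In stellate-like cells Ccl2 had a log2 fold change of 0.39 with a standard error of 0.19 (edgeR, adjusted p = 0.689; 3 of 998 targets passed, 0.301%), and control area 3 overlapped the HIRA KO areas. Cxcl1 in these cells stood at 480, 630 and 735 CPM in control and at 1077, 745 and 608 CPM in HIRA KO areas, with a log2 fold change of 0.45 and a standard error of 0.20 (edgeR, adjusted p = 0.684). Leaving out 1 area moved these values between 0.20 without control area 1 and 0.63 without control area 3 for Ccl2, and between 0.21 without HIRA KO area 1 and 0.67 without control area 3 for Cxcl1, and neither passed. In Kupffer-like cells the signs of the 2 genes differed and neither passed. Ccl2 was at 970, 693 and 767 CPM in control areas and at 578, 617 and 509 CPM in HIRA KO areas, which did not overlap, as for 7.21% of targets in this direction in these cells, with a log2 fold change of -0.46 and a standard error of 0.20 (edgeR, adjusted p = 0.746; 5 of 995 targets passed, 0.503%). These Kupffer-like levels rest on 26 to 57 counts per area. In cholangiocyte-like and endothelial-like cells the log2 fold changes of both genes lay between -0.02 and 0.12 with adjusted p from edgeR of 0.965 or more. In neutrophil-like cells Cxcl1 had a log2 fold change of 0.61 with a standard error of 0.34 (edgeR, adjusted p = 0.655; 2 of 604 targets passed, 0.331%), and Ccl2 had too few counts for the fit. Whether the change differed between classes was not tested.

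No listed ligand or receptor passed in edgeR over all cells, where only 2 of 998 targets (0.2%) did. Of those 998 targets, 73 had an unadjusted p under 0.05 and 10 (1%) passed in DESeq2. With so few passing, 0 in a short list does not set that list apart. Of the 10 neutrophil ligands and receptors listed, 7 had a target, and 0 passed in edgeR over all cells (1 at an unadjusted p under 0.05, which was Cxcl1, and 1 in DESeq2). Their median log2 fold change was -0.01 beside -0.01 for all targets. Cxcl2, a close paralogue of Cxcl1 that acts on the same receptor, stood at 756, 866 and 725 CPM in control and at 854, 835 and 704 CPM in HIRA KO areas, with a log2 fold change of 0.14 and a standard error of 0.10. Cxcr1 was lower in every HIRA KO area than in every control area, with a log2 fold change of -0.27 and a standard error of 0.13 (edgeR, adjusted p = 0.671). All 3 HIRA KO areas lay below all 3 control areas in CPM for 16.7% of targets over all cells, and above them for 2.51%. The neutrophil-attracting ligand Cxcl5 was also lower in each HIRA KO area, at 559, 563 and 570 CPM against 618, 692 and 662 CPM.

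Of the 10 monocyte ligands and receptors, 7 had a target, 4 of them above the highest negative probe, with a median log2 fold change of 0.05, and 0 passed in edgeR (0 at an unadjusted p under 0.05 and 0 in DESeq2). Ccr2, the receptor for CCL2, was read 3007 times, which is 1.04 times the mean negative probe, so its signal was of the size of background. Cx3cl1, a membrane-bound chemokine, had a log2 fold change of 0.22 with a standard error of 0.15, and Csf1, a growth factor of macrophages, one of -0.13 with a standard error of 0.13. Of 31 targets for other chemokines and receptors, 0 passed (3 at an unadjusted p under 0.05 in edgeR and 0 in DESeq2 after adjustment), with a median log2 fold change of -0.05. Over all 998 targets, 2 passed in edgeR, 73 had an unadjusted p under 0.05 and 10 passed in DESeq2. Cxcl9 was at 625, 532 and 487 CPM in control and at 1182, 515 and 518 CPM in HIRA KO areas, so that HIRA KO area 1 alone was high. Cxcr4 was higher in each HIRA KO area, with a log2 fold change of 0.33 and a standard error of 0.10, but its 3147 counts lay under the highest negative probe. Over all cells, 2.51% of targets were likewise higher in every HIRA KO area than in every control area.

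The 48 genes of NF-kB signalling and its inputs had 38 targets, of which 0 passed in edgeR (3 at an unadjusted p under 0.05) and 0 in DESeq2, with a median log2 fold change of -0.02. Over all 998 targets, 2 passed in edgeR (73 at an unadjusted p under 0.05) and 10 in DESeq2. Nfkbia, which encodes the NF-kB inhibitor that NF-kB itself induces, stood at 964, 1127 and 1302 CPM in control and at 1423, 1410 and 1273 CPM in HIRA KO areas. Its log2 fold change was 0.39 with a standard error of 0.13 (edgeR, adjusted p = 0.571), and HIRA KO area 3 was the lowest of its group. Vcam1, an adhesion molecule of activated endothelium, was also lowest in HIRA KO area 3 within its group, with 967, 1047 and 818 CPM, against 701, 851 and 885 CPM in control. Il1r1, the signalling receptor for interleukin 1, was lower in each HIRA KO area with a log2 fold change of -0.28 and a standard error of 0.11 (edgeR, adjusted p = 0.588). Over all cells, 16.7% of targets were likewise lower in every HIRA KO area than in every control area. Within the HIRA KO group, Il1r1 and Tlr3, both with a negative log2 fold change, were also lowest in area 3, at 444 and 758 CPM. Being lowest there was thus not particular to Nfkbia and Vcam1.

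Local foci of both genes were sought. A focus was a set of linked neighbourhoods, each a cell with its 20 nearest cells, that held at least 10 counts of the gene and at least 5 times the mean of the area. Cxcl1 had 9 foci, 5 in control and 4 in HIRA KO areas, and Ccl2 had 10, with 2 in control and 8 in HIRA KO areas. By the same rule the 10 negative probes had between 0 and 5 foci, on average 1.1, and their densest neighbourhood held 15 counts against 33 for Cxcl1 and 23 for Ccl2. The limits mattered. At 5 counts or more the negative probes had more foci, on average 23.5, than Cxcl1 with 10 or Ccl2 with 13. At 20 counts or more they had 0, against 3 for Cxcl1 and 2 for Ccl2. The split of Cxcl1 between control and HIRA KO areas was 7 and 35 at 3 times the mean of the area, and 2 and 9 with 10 nearest cells. For Ccl2 these splits were 3 and 14, and 1 and 7. The foci of negative probes numbered 1 in control and 10 in HIRA KO areas, which also held more gene counts, and the part of depth in the uneven Ccl2 foci was not tested. Foci held 4.31% of all Cxcl1 and 5.74% of all Ccl2 counts. Foci were chosen by the counts themselves, so their levels are a description with no test.

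The 2 genes shared cells in 4 foci of each. The largest lay in field 16 of HIRA KO area 1, where 144 cells held 76 Cxcl1 counts, at 4099 CPM against 917 CPM in the rest of the area. The same cells held 72 Ccl2 counts, 5.71 times the level of the rest of the area, and 140 of them also belonged to the largest Ccl2 focus. Of its cells, 42 were stellate-like, 30 monocyte/dendritic-like, 15 cholangiocyte-like and 7 neutrophil-like, and only 6 were hepatocyte-like. The Cxcl1-positive cells there included 14 stellate-like and 12 monocyte/dendritic-like cells. The mean CD45 stain, a protein of all leukocytes, was 1.88 times that of the rest of the area. Icam1, the adhesion molecule that holds leukocytes on endothelium, reached 2.80 times the rest of the area from 49 counts, while Cxcl9 was at 0.453 times. The mean negative probe in this focus was at 313 CPM.

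By counts in 1 neighbourhood, the densest focus lay in a control area. Across fields 35 and 36 of control area 3, 75 cells held 36 Cxcl1 counts at 4259 CPM, which is 7.49 times the rest of the area, and 1 neighbourhood held 33 of them. Only 13 cells were positive, and among them were 5 stellate-like and 3 hepatocyte-like cells. The Ccl2 focus in the same place, all of whose 65 cells were shared, held 28 counts, 11 of them in 1 cell. Nfkbia was at 2.31 times and Icam1 at 2.20 times the rest of the area in the Cxcl1 focus, from 25 and 22 counts, and the CD45 stain was at 1.09 times. This focus gave 8.18% of all Cxcl1 counts of control area 3. A shared focus in field 43 of HIRA KO area 3, with 34 cells of which 15 were hepatocyte-like, held 14 Cxcl1 and 18 Ccl2 counts. The last shared pair, in field 27 of HIRA KO area 2, overlapped in 5 cells.

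**Figure D5:**
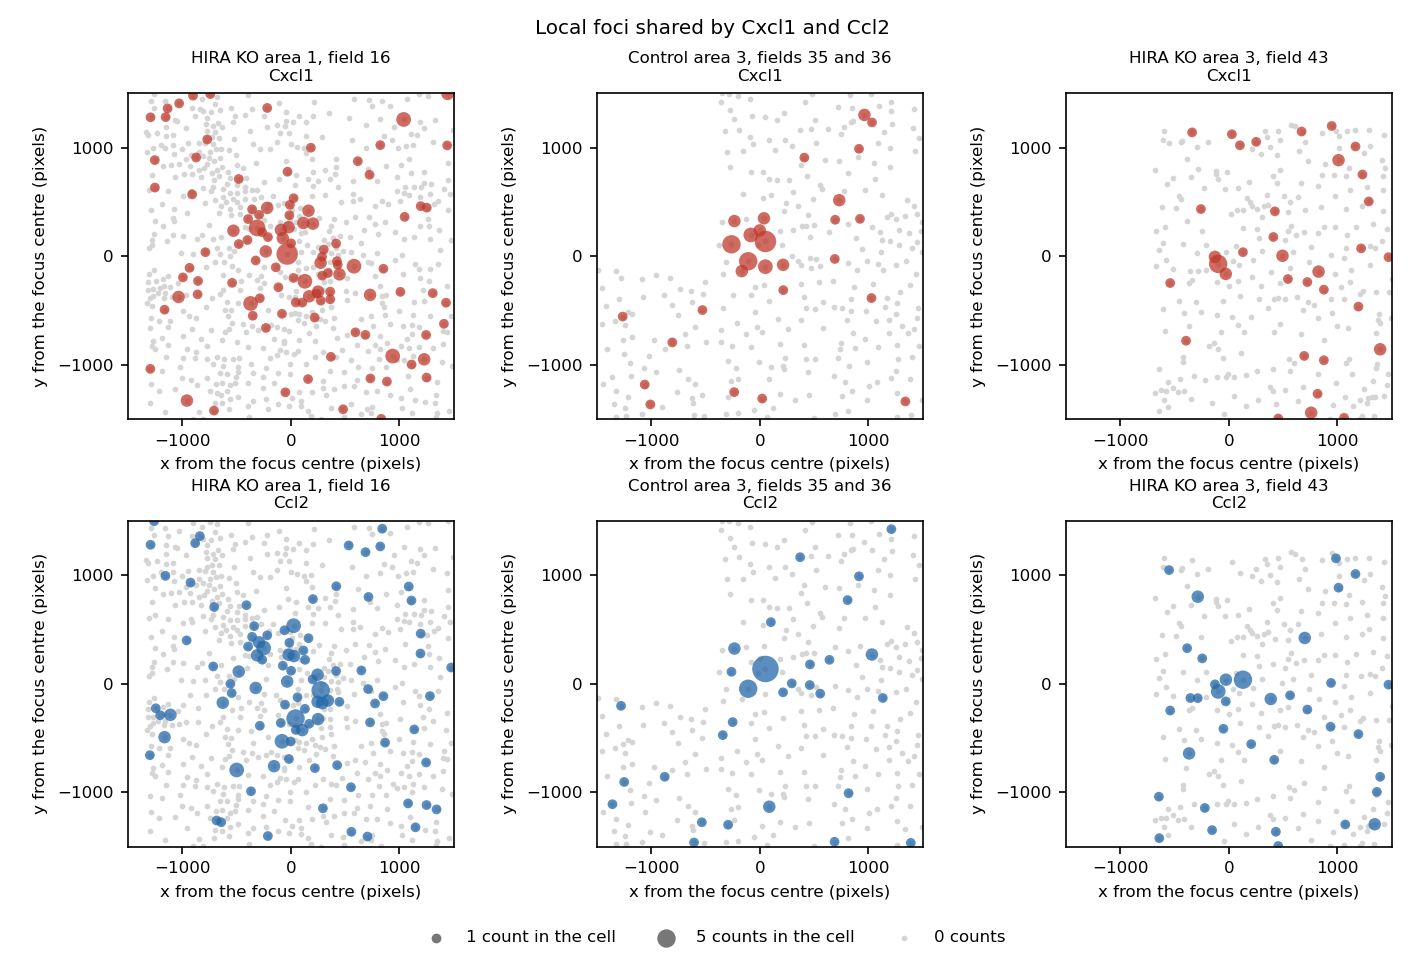
Maps of 3 foci shared by Cxcl1 (upper row) and Ccl2 (lower row), with x and y in pixels from the centre of the focus. Each point is a cell, grey at 0 counts and coloured with an area that grows with its count. In HIRA KO area 1 the positive cells form a cluster of many cells with up to 7 Cxcl1 counts, whereas in control area 3 a few cells with up to 11 Ccl2 counts make the focus.

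Ccl2 also had foci without a Cxcl1 focus. A pair of them in field 13 of HIRA KO area 1 held 43 counts in 122 cells and 21 counts in 58 cells. Of these cells, 86 and 47 belonged to the cluster led by Saa1/2 and Cxcl9. Cxcl9 was 8.79 and 8.58 times the rest of the area in them and Cxcl10 6.82 and 8.14 times, while Cxcl1 was at 1.53 and 0.587 times. The CD45 stain was 2.33 and 2.001 times that of the rest of the area. In HIRA KO area 2, a focus of 52 cells in field 28 held 17 Ccl2 counts, and 19 of its cells were stellate-like and 10 cholangiocyte-like. Among Cxcl1 foci without Ccl2, one in field 24 of control area 2 held 30 counts in 68 cells, 25 of them hepatocyte-like, with Il6 at 2.31 times the rest of the area from 19 counts. Leaving out the 854 cells of all foci left the ratio of mean CPM, HIRA KO over control, at 1.38 for Cxcl1 against 1.35 with them. For Ccl2 it went from 1.02 to 0.977.

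The surroundings of positive cells were compared over all areas. Positive cells were compared with cells without a count of the gene in the same area, class and quartile of total counts, by how many of their 20 nearest cells belonged to each class. Of 20 comparisons, 0 passed after adjustment (0%; 1 at an unadjusted p under 0.05). Cxcl1-positive cells had 12.8% endothelial-like neighbours against 12.4% in the reference, a difference of 0.371 ± 0.274 percentage points (SD, n = 6 areas), higher in 6 of 6 areas (exact sign-flip permutation test, p = 0.03125, adjusted p = 0.625). Negative probes treated in the same way differed from their reference by -0.0407 to 0.518 points for this class. Neutrophil-like neighbours made up 1.78% around Cxcl1-positive cells against 1.76% in the reference (exact sign-flip permutation test, n = 6 areas, p = 0.688). Monocyte/dendritic-like neighbours made up 5.62% around Ccl2-positive cells against 5.68% (exact sign-flip permutation test, n = 6 areas, p = 0.531). The genotype difference of these shares gave an adjusted p of 1 for each of the 20 comparisons in the exact permutation test of 3 against 3 areas, whose smallest raw p is 0.1.

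The counts of the neighbours were compared in the same way. The mean Cxcl1 count of neighbours was 1.17 ± 0.204 times that of the reference (SD, n = 6 areas, higher in 5 of 6), and 1.54 times in control area 3, without which the mean was 1.09. For Ccl2 around Ccl2-positive cells it was 1.09 ± 0.129 times, with 1.34 times in HIRA KO area 1. Without that area the Ccl2 mean was 1.03, within the range of the negative probes. Among the 10 negative probes the same ratio ran from 0.984 to 1.07. The counts of both genes met in 543 cells, against 480 from the product of their shares within area, class and quartile of total counts, a ratio of 1.13 that lay between 1.02 and 1.33 in each of the 6 areas. Negative probes were not put through this step, and depth still varies within a quartile. Whether this ratio exceeds that of unrelated probes was not tested.

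Other targets were higher in positive cells than in cells of the same area, class and quartile of total counts that lacked the gene. In Cxcl1-positive cells the 5 targets with the highest fold over matched cells, of 756 above the highest negative probe, were Ccl2 at 1.18-fold, the Wnt receptor Fzd8 at 1.18-fold, Cxcl10 at 1.17-fold, Hcar2 at 1.15-fold and the platelet chemokine Pf4 at 1.15-fold. In Ccl2-positive cells they were Cxcl10 at 1.34-fold, the metallothionein Mt2 at 1.21-fold, Cxcl1 at 1.20-fold, Cxcl9 at 1.18-fold and the haemoglobin target Hba-a1/2 at 1.18-fold. Cxcl10, Hcar2, Mt2 and Hba-a1/2 were above 1 in 6 of 6 areas and the others in 5 of 6, and the median over targets was 1.003 for both genes. Cxcl1 and Ccl2 each stood in the other's list, as a description without a test.

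Over the 50 fields of view, after the mean of each area had been taken off the log2 CPM, the targets most like Cxcl1 were Col4a2 (Pearson r = 0.58), Adgrf3 (0.58), Fgfr2 (0.57), Eng (0.54) and Tnfrsf11b (0.52). Those most like Ccl2 were the matrix protease Mmp2 (0.57), Il13ra1 (0.53), the basement membrane collagen Col4a1 (0.52), Bmp5 (0.51), which stellate cells express, and Cryab (0.51). Fields of an area share a section and its depth, so these values describe the fields and carry no p. The median r over the 756 targets was 0.11 for Cxcl1 and 0.15 for Ccl2. Cxcl1 and Ccl2 correlated with each other at 0.36, and within single areas the value ran from -0.26 to 0.71.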

How the data were processed

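The authors deposited, for 50 fields of view on 1 slide, raw counts for each target in each segmented cell, a table of single transcripts with their compartment, and, per the file headers, stain intensity, area and position per cell, while per the file headers the compartment and cell columns hold other, non-numeric labels; decoding and segmentation were done by the platform, and the version of its software is not given in the sources used here. Cells with fewer than 20 gene counts or an area above 5 times the geometric mean were left out, as the study's methods state, which kept 49665 of 52132 cells. Depth was 88 to 147 median counts per cell and area, and the counts of negative probes set the background of low targets. CPM are counts per 1000000 gene counts.

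Cells were clustered on Pearson residuals without Cxcl1 and Ccl2 (30 principal components, 20 nearest neighbours, Leiden resolution 1.6, leidenalg 0.10.2). A cluster was named when at least 3 markers of a class were raised by over 0.5 on the log2 scale and the class held at least 1 of its 10 leading genes and over 2 times as many as any other class. Counts were summed per area and set of cells and tested with edgeR 4.0.16 (quasi-likelihood, TMM) over all targets. The comparison was of 3 control against 3 HIRA KO areas, since the labels name no mouse. The p-values refer to the spread between areas, which the fits estimate in part from all targets together. For field sums the replication comes from the fields instead, with a single correlation within areas. The fit was tested on simulated data. Alternatives were DESeq2 1.42.0, library size scaling, no filter on low counts, all segmented cells, other area limits and Leiden resolutions, the slide row as a block, field sums in limma 3.58.1 with the area as a random block, each area left out, and other neighbour and focus settings; leaving out the cells of the foci and counts per cell area were added after seeing the data. The members, gene lists and tests were chosen with earlier results of these data known. Genes beyond Cxcl1 and Ccl2 were named by rule: up to 2 per list and direction with the lowest p, and the 5 most alike over fields and in positive cells; further genes of the lists were named in foci after their values had been seen. Columns not mapped to a sample: 0. Cell outlines were not used here.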

Additional observations from a re-analysis of the deposited data

How the results depend on the processing

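No paired analysis was possible because the numbers in the labels count fields of view and none is shared by the groups; the slide row served as the replicate block instead. Of 291 alternatives, 234 left the result the same. For fold changes and neighbour shares this meant the same direction and side of the threshold, with a missing adjusted p taken as not passing. For numbers of targets or foci it meant a change within a set fold, and for levels and ratios a change within the spread over areas. Of the rest, 11 passed where the main fit did not, 18 turned sign and 28 moved further. Dropping the filter on low counts changed nothing over all cells, and few targets passed in most fits. The number left the same is therefore no measure of robustness. For Cxcl1 over all cells, DESeq2 gave 0.54 (adjusted p = 0.0462), and leaving out 1 area gave 0.39 to 0.75; the slide row as replicate block gave 0.51 (adjusted p = 0.0627). In hepatocyte-sized cells the replicate block gave 0.64, limma-voom on field sums 0.64 (adjusted p = 0.0043) and leaving out 1 area 0.50 to 0.89. In hepatocyte-like cells the replicate block gave 0.82 (adjusted p = 0.00391), field sums 0.86, resolution 2.4 0.81 (adjusted p = 0.0366), resolution 0.8 0.74 (adjusted p = 0.137), library size alone 0.72 (adjusted p = 0.0653) and leaving out 1 area 0.68 to 1.09. The cause of these differences was not tested; the edgeR value without HIRA KO area 3 has fewer samples.

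Scaling by library size alone moved the median of all targets to -0.12 on the log2 scale and turned Ccl2 to -0.013 in hepatocyte-sized and -0.068 in hepatocyte-like cells. Other values that turned sign were never past the threshold. Ccl2 in cholangiocyte-like cells was -0.0051 at resolution 0.8 and -0.072 at 2.4, and -0.14 to 0.37 without 1 area. Cxcl1 there was -0.024 to 0.21 without 1 area. In endothelial-like cells Cxcl1 was 0.0071 in DESeq2, 0.17 at resolution 0.8 and -0.14 to 0.12 without 1 area, and Ccl2 was 0.059 at resolution 0.8 and -0.15 to 0.12 without 1 area. Targets called over all cells were 2, against 10 in DESeq2, 1 with library size alone, 17 with the replicate block, 11 on field sums and 1 to 3 without 1 area. In hepatocyte-sized cells they were 1, against 15, 44 with the replicate block, 29 on field sums, 4 at 12000 square pixels and 0 to 4 without 1 area. Of the neutrophil list, DESeq2 called 1.

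With the mean negative probe taken off, Cxcl1 in hepatocyte-like cells fell to 353 CPM and Ccl2 in stellate-like cells to 691 CPM. Foci of Cxcl1 numbered 3 at 20 counts, 42 at 3 times and 2 at 10 times the area mean, and 3 with 40 and 11 with 10 nearest cells; those of Ccl2 numbered 2, 17, 2, 3 and 8. The endothelial-like share around cells with 2 or more Cxcl1 counts differed by -0.0226 points. In alternatives chosen after seeing the data, the log2 ratio of mean Ccl2 was -0.03 without the foci, and counts per cell area gave 1.03 for Cxcl1 and 0.64 for Ccl2. Background at the level of the negative probes and, in small classes and foci, few counts limit the values.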
